A study of Mus musculus with 4 samples.

Results

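Genes for the subunits of the oxidative phosphorylation complexes were followed through single cells of the aged mouse lung. Members were taken by symbol: Ndufa, Ndufb, Ndufc, Ndufs or Ndufv with a number, Uqcr, Cox4 to Cox8, Atp5, and the mitochondrially encoded mt-Nd, mt-Co, mt-Cyt and mt-Atp genes, with assembly factors (Ndufaf) and pseudogenes left out. The rule found 93 of the 31054 features in the matrices, of which 80 are encoded in the nucleus and 13 in the mitochondrial genome. The nuclear genes comprised 35 of complex I, 8 of complex III, 19 of complex IV and 16 of complex V, and 2 that the prefixes caught but that are not subunits. Those 2 were Cox7a2l, which helps join complexes III and IV into supercomplexes, and Atp5s. The mitochondrial genes comprised 7 of complex I, 1 of complex III, 3 of complex IV and 2 of complex V. Complex II, whose genes have other prefixes, lay outside the rule.

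The complexes sit in the inner mitochondrial membrane. Complexes I, III and IV pass electrons from NADH and ubiquinol to oxygen and pump protons, and complex V, the ATP synthase, makes ATP as protons flow back. Most subunits are encoded in the nucleus, made in the cytosol and imported, while the catalytic cores of complexes I, III and IV and part of the proton channel of complex V come from mitochondrial DNA, whose genes are copied as long joint transcripts. Complex IV is unusual in having isoform pairs, one broadly used and one known from muscle, testis or oxygen-sensitive cells.

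Lungs came from male C57BL/6 mice, treated from an age of 19 months with BPTES or its vehicle DMSO for 1 month. BPTES inhibits the glutaminase GLS1, which turns glutamine into glutamate, a source of carbon for the mitochondrial citric acid cycle. Each group had 2 libraries. All lungs were digested for 1 h with Liberase, and 20000 CD45-negative and 9000 CD45-positive sorted cells were mixed for each library, so the proportions of immune and other cells were set by the sort. The labels do not say whether the libraries of a group came from separate mice, so p-values measure the spread between these libraries, which may be technical. With 2 libraries against 2, an exact two-sided permutation test of a single value cannot go below p = 0.333, and statements on summed levels are therefore given as values and as overlap between groups.

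The libraries held 260346570 to 342107092 UMIs (molecules counted by unique identifiers), and 63895 cells were kept after filtering, 14407 to 18860 in each library. Between 75 and 121 cell barcodes were shared by any pair of libraries, 0.456% to 0.68% of the smaller one. Cells fell into 53 clusters, of which 40 were named from marker genes and 13, with 11.5% of the cells, were left unnamed. The names are given as "-like" because they rest on markers alone, and 20 named classes had at least 50 cells in every library and were compared between treatments. Only 5 members were among the 2000 genes used for clustering (Cox4i2, Cox6a2, Cox7a1, Ndufa4l2 and mt-Co1).

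Summed over the 80 genes, nuclear subunit transcripts differed 1.96-fold between the highest and the lowest class. The level was highest in classical monocyte-like cells, with 122 and 122 UMIs per 10000 UMIs under BPTES and 140.3 and 136 under DMSO. Alveolar fibroblast-like cells had the lowest mean, with 67.9 and 70.9 under BPTES and 62.5 and 64.0 under DMSO. All 4 libraries of classical monocyte-like cells lay above all libraries of every other compared class. Ciliated-like cells followed, with a mean of 117 ± 1.92 (SD, n = 4 libraries), then dendritic-like cells with 111 ± 4.52 and NK-like cells with 108 ± 1.82.

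A middle group held interstitial macrophage-like, T-like, pericyte-like, AT2-like and smooth muscle-like cells, with means of 99.9 to 95.6, whose library values overlapped from one neighbour to the next. Below them came peribronchial fibroblast-like cells at 85.2 and non-classical monocyte-like cells at 83.8 ± 4.79. The lowest end was formed by venous endothelial-like (71.6), general capillary endothelial-like (68.8), neutrophil-like (67.4) and alveolar fibroblast-like (66.3) cells. Along the order of 20 classes, only 3 steps separated neighbours whose libraries did not overlap: after classical monocyte-like, after NK-like and after smooth muscle-like cells. Of the classes too small to be compared, alveolar macrophage-like cells had a mean of 128, from 114 in one DMSO library to 138 in one BPTES library.

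Single genes did not all peak where the sum did. Of the 80 nuclear genes, 29 had their highest class mean in classical monocyte-like cells and 24 in ciliated-like cells, 12 of the latter in complex I, and 34 had their lowest mean in neutrophil-like cells. For the 71 genes that passed the filter on low counts in every class, the highest class mean was a median of 2.86 times the lowest. The widest of these ranges belonged to Ndufa4 at 54.6 times, described with its paralog below. Ndufc2, a complex I membrane subunit, reached 392 CPM (counts scaled to 1000000 by TMM, the trimmed mean of M-values) in ciliated-like cells and 43.8 in neutrophil-like cells. Atp5s, which is not a subunit, ranged from 34.4 CPM in ciliated-like to 1.77 in neutrophil-like cells. UMIs count 3' ends of molecules, so no division by gene length was made.

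By complex, pericyte-like cells stood out in their proportions. Their complex IV genes summed to 45.4 UMIs per 10000, the highest of any compared class, against 35.8 in classical monocyte-like cells. Most of this sum came from Cox4i2 and Ndufa4l2, described below, at 2028 and 958 UMIs per 1000000 UMIs of pericyte-like cells. It is thus not a trait of the complex as a whole, and both genes also enter the nuclear total of these cells. Complex V genes of pericyte-like cells summed to 18.2, near the 17.2 of alveolar fibroblast-like cells, which was the lowest. Complex I genes peaked in ciliated-like cells at 40.7, and complex III genes in classical monocyte-like cells at 14.1.

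**Figure D1:**
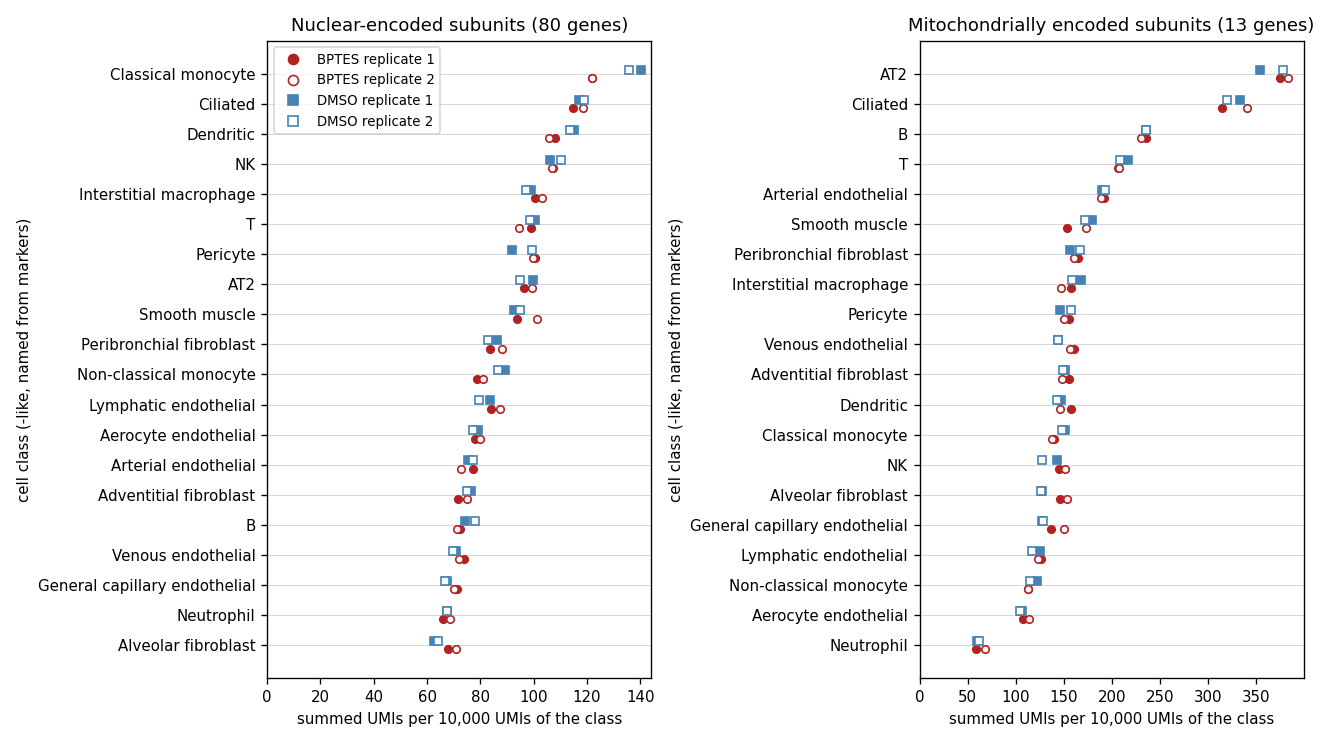
Summed level of the 80 nuclear and the 13 mitochondrial members, in UMIs per 10000 UMIs, in the 20 compared classes, each point 1 library, with BPTES and DMSO libraries marked apart. Nuclear means run from 66.3 in alveolar fibroblast-like to 130.0 in classical monocyte-like cells, and mitochondrial means from 62.0 in neutrophil-like to 373 in AT2-like cells, in a different order.

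Transcripts of the 13 mitochondrial genes ranged more widely, 6.02-fold between classes, and in another order. AT2-like cells, the surfactant-making alveolar epithelium, led with 375 and 384 UMIs per 10000 under BPTES and 355 and 379 under DMSO. Ciliated-like cells had 315 and 340.4 under BPTES and 334 and 319.8 under DMSO, which did not overlap with AT2-like cells. B-like (234 ± 2.83), T-like (209.8 ± 4.77) and arterial endothelial-like cells (191 ± 1.80; SD, n = 4) came next, each without overlap with the class that followed. Neutrophil-like cells were lowest, with 58.5 and 68.0 under BPTES and 59.4 and 62.1 under DMSO.

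Every one of the 13 mitochondrial genes had its lowest class mean in neutrophil-like cells. The highest mean was in AT2-like cells for 8 genes (mt-Nd1, mt-Co1, mt-Co2, mt-Atp8, mt-Atp6, mt-Co3, mt-Nd3 and mt-Nd5), in ciliated-like cells for 4 (mt-Nd2, mt-Nd4l, mt-Nd4 and mt-Cytb) and in peribronchial fibroblast-like cells for mt-Nd6. mt-Co1, the catalytic subunit of complex IV, was the most abundant, at 9160 CPM in AT2-like cells and 1630.0 in neutrophil-like cells. mt-Nd2, a complex I core subunit, had the widest range, from 3401 CPM in ciliated-like to 271 in neutrophil-like cells, 12.6 times. mt-Nd6, the only member encoded on the other strand of the mitochondrial genome, was the least abundant of the 13, at 28.4 CPM in its highest class. The annotated gene of mt-Atp8 overlaps that of mt-Atp6 by 43 bases and mt-Nd4l overlaps mt-Nd4 by 7, on the same strand, so reads in those stretches could not be divided with certainty.

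The ratio of mitochondrial to nuclear subunit UMIs therefore varied between classes. It was 3.83 ± 0.191 in AT2-like, 3.17 ± 0.0981 in B-like and 2.79 ± 0.0901 in ciliated-like cells (SD, n = 4). It was 1.11 ± 0.0326 in classical monocyte-like and 0.920 ± 0.0506 in neutrophil-like cells, the only compared class in which nuclear subunit UMIs outnumbered mitochondrial ones. Classical monocyte-like cells, first for nuclear genes, were 13th of 20 for mitochondrial genes at 144. These class levels are descriptions without a test, since the classes were formed from the same cells.

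The neutrophil-like class was made of unlike clusters. One of 2185 cells, led by S100a9, S100a8 and Retnlg, had 44.7 ± 3.98 nuclear and 24.9 ± 4.94 mitochondrial subunit UMIs per 10000. The other, of 633 cells, led by Gda, Clec4e and Il1b, had 91.9 ± 7.44 and 102 ± 5.66, and 1.96 times the median depth of its libraries against 0.615 times. The level of this class thus sits between those of its clusters. The first cluster made up 73.3% to 82.5% of the class over the 4 libraries, and the part of this proportion in the class level was not tested.

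Cells with few UMIs also differed in opposite ways. Alveolar fibroblast-like cluster 5, of 2622 cells at 0.222 times the median depth of their libraries, had 147 ± 3.30 nuclear subunit UMIs per 10000, against 61.4 ± 2.45 in cluster 1 of the same class. Unnamed cluster 10, of 1723 cells at 0.180 times the median depth, had 152 ± 2.55 nuclear and 332 ± 10.8 mitochondrial subunit UMIs. Unnamed clusters 12 and 24, at 0.248 and 0.244 times, had 30.1 ± 2.45 and 12.4 ± 1.19 nuclear subunit UMIs but 292 ± 35.6 and 167 ± 33.2 mitochondrial ones. B-like cluster 27, of 615 cells at 0.158 times, had 20.6 ± 3.40 and 466 ± 38.2. The remaining shallow clusters, AT1-like cluster 38 at 102 and unnamed cluster 47 at 79.3 nuclear subunit UMIs, lay among the deeper ones, so low depth went with high, low and middle levels.

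**Figure D2:**
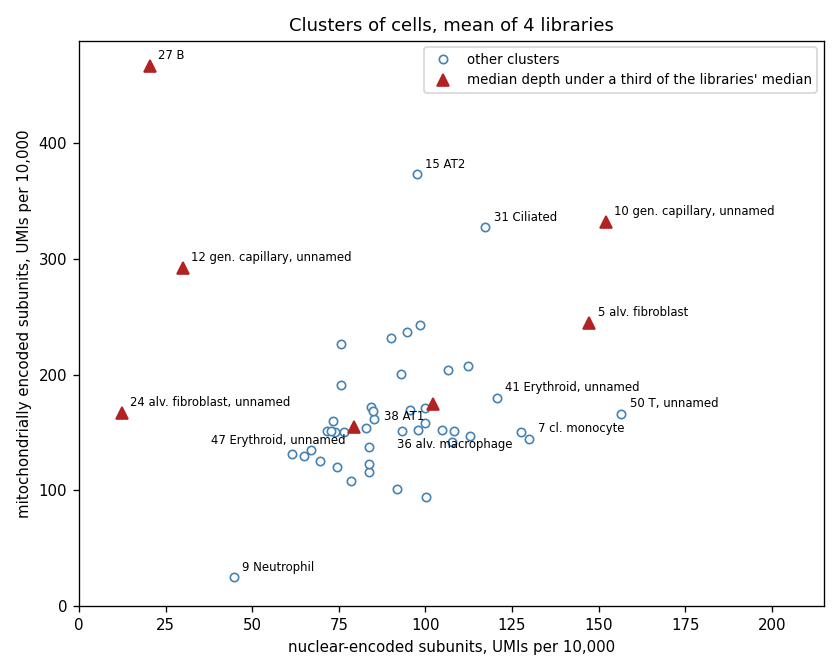
Summed nuclear against summed mitochondrial subunit level (UMIs per 10000 UMIs, mean of the 4 libraries) for each cluster, with shallow clusters (0.158 to 0.328 times their libraries' median depth) as triangles and cluster 52, of 13 cells, not drawn. Shallow clusters spread over most of the nuclear axis, from 12.4 to 152, while cluster 9, the larger neutrophil-like one, lies lowest for mitochondrial genes at 24.9.

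The widest differences between classes lay in the isoform pairs of complex IV. In pericyte-like cells, Cox4i2 (chr2:152754173-152765037, + strand, mm10), the alternative to the broadly used Cox4i1, made up 90.6% and 89.4% of Cox4 UMIs under BPTES and 90.5% and 89.5% under DMSO. Its level there was 2056 ± 102 CPM against 229 ± 12.9 for Cox4i1 (chr8:120668222-120674207). In smooth muscle-like cells the share was 73.7% and 31.8% under BPTES and 26.1% and 58.8% under DMSO, so it varied within both groups. With likely doublets kept, the mean share there was 25.9% in place of 47.6%. In the other 18 compared classes it did not exceed 3.04%. A Cox4i2 UMI was found in 94.6% of pericyte-like cells (median 14009 UMIs per cell) and in 0.775% of T-like cells (15811). In AT2-like cells, with a median of 45691 UMIs, it was 15.6%, so the share in cells with few Cox4i2 UMIs was not the same in each class.

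Ndufa4 and Ndufa4l2 showed the same division. Ndufa4, once assigned to complex I and now known as a complex IV subunit, has a paralog, Ndufa4l2 (chr10:127514967-127517154, + strand), known as a gene induced by low oxygen. Ndufa4l2 took 99.3% and 99.4% of the pair's UMIs in the BPTES libraries of pericyte-like cells and 99.6% and 99.3% in the DMSO libraries. Ndufa4 was nearly missing there: 5 to 15 UMIs in each library, 6.21 CPM on average, against 339 CPM in ciliated-like cells. A Ndufa4 UMI was seen in 5.38% of pericyte-like and 88.8% of T-like cells, while Ndufa4l2 was seen in 90.0% and 0.334%.

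Smooth muscle-like cells again lay between, with Ndufa4l2 shares of 86.4% and 45.8% under BPTES and 61.8% and 70.8% under DMSO. Adventitial fibroblast-like cells had 8.41% ± 1.38 and every other compared class 0.712% or less. Cox4i2 and Ndufa4l2 were among the genes used for clustering, and with all members left out of those genes the pericyte-like shares were 89.9% and 99.4%.

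Cox6a2, the form of Cox6a known from heart and skeletal muscle, was used by AT2-like cells. It made up 46.6% and 46.5% of Cox6a UMIs under BPTES and 50.2% and 40.3% under DMSO, and 81.9% of these cells held a UMI. Ciliated-like cells, the other deeply sequenced epithelium at a median of 32902 UMIs, held one in 0.593% of cells. In the 81 plasmacytoid dendritic-like cells the share was higher, 81.5% and 83.5% under BPTES and 81.6% and 79.6% under DMSO. NK-like cells had 10.1% in 1 BPTES library, from 40 UMIs, and 1.22% to 2.62% in the other 3.

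Among the compared classes, Cox6b2, known from testis, was used by alveolar and adventitial fibroblast-like cells. Its share of Cox6b UMIs was 28.2% and 25.9% under BPTES and 27.9% and 28.7% under DMSO in alveolar fibroblast-like cells, and 20.2% ± 3.10 in adventitial fibroblast-like cells. It was at most 6.55% in any other compared class. A UMI was seen in 41.0% of alveolar fibroblast-like cells and 0.409% of aerocyte endothelial-like cells at a similar depth (18146 and 17785 UMIs). Outside the compared classes, unnamed cluster 4, of 2793 cells scored closest to alveolar fibroblasts, held 30.4% of the Cox6b2 UMIs of all kept cells. Alveolar fibroblast-like clusters 1 and 5, of 8396 and 2622 cells, held 37.5% and 6.74%. Adventitial fibroblast-like cluster 22, of 738 cells, held 6.23%, and cluster 16, of 1120 cells, held 3.45%.

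Other isoforms were minor. Cox8b, another muscle form, made up 5.07% ± 0.394 of Cox8 UMIs in alveolar fibroblast-like and 5.19% ± 0.651 in lymphatic endothelial-like cells, against 0.0324% in T-like cells. Cox7b2 reached 2.65% of Cox7b UMIs in alveolar fibroblast-like cells, and Cox7a1 no more than 1.60% of the Cox7a pair in any compared class. Cox8c gave 6 UMIs in all kept cells. The Atp5g genes, which encode the same mature ring subunit of complex V, were all in use: Atp5g2 ran from 41.2% of their UMIs in alveolar fibroblast-like to 62.4% in B-like cells, Atp5g1 from 20.4% to 34.5% and Atp5g3 from 17.3% to 28.7%.

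**Figure D3:**
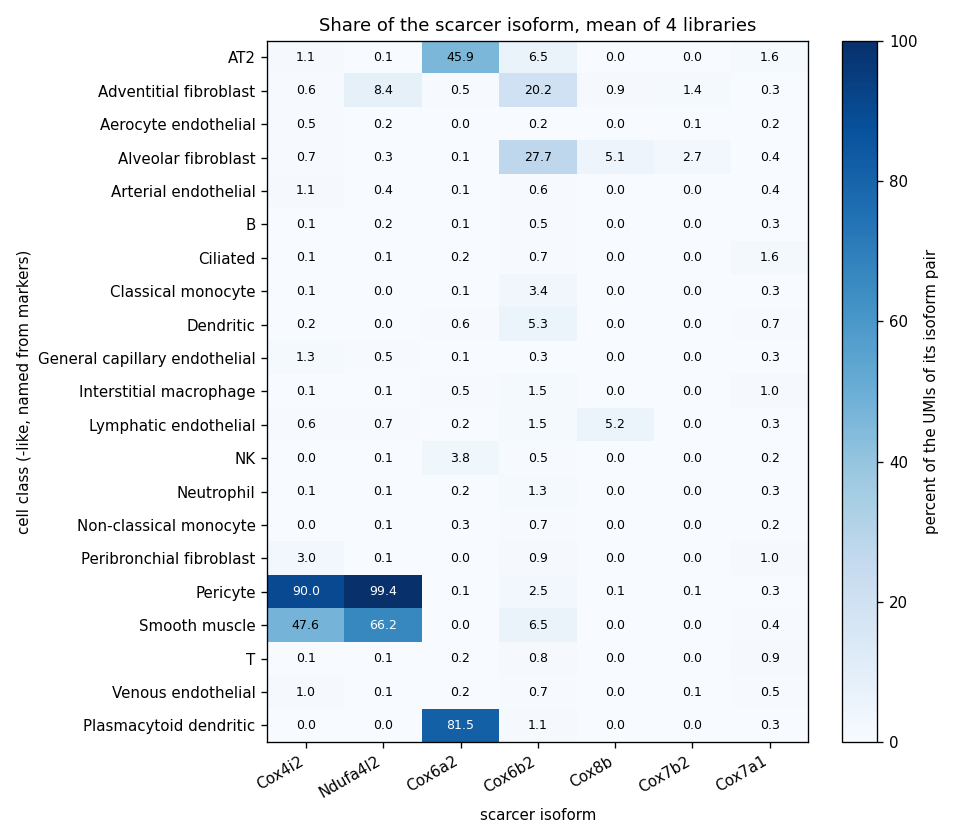
Share of each alternative isoform (columns) in the UMIs of its pair or set, in percent as shade and printed value, by class (lines), mean of the 4 libraries. Cox4i2 and Ndufa4l2 reach 90.0 and 99.4 in pericyte-like cells, Cox6a2 reaches 45.9 in AT2-like cells and Cox6b2 27.7 in alveolar fibroblast-like cells.

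The sequences before the start sites of the Cox6b and Cox8 pairs are shown to set a broadly used beside an alternative form. Ndufa4 is shown without its paralog. RefSeq windows (GRCm38.p6, the build of mm10) from 250 bases before to 50 after the start were held for 63 of the 80 nuclear members. Windows for Cox4i1, Cox4i2, Cox6a2 and Ndufa4l2 were not used here. The 150 bases before the start follow, 5' to 3' on the gene's strand, with matches to the motif CCGGAAG, bound by ETS-family factors such as GABP, in capitals on either strand where they lie whole within these bases. The positions are chr7:30626115-30626264 for Cox6b1, chr7:4753095-4753244 for Cox6b2, chr19:7217617-7217766 for Cox8a, chr7:140900447-140900596 for Cox8b and chr6:11907451-11907600 for Ndufa4, all on the - strand.
Cox6b1: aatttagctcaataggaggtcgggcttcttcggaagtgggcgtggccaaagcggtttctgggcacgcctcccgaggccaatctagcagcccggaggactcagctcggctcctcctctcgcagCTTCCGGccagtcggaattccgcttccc
Cox6b2: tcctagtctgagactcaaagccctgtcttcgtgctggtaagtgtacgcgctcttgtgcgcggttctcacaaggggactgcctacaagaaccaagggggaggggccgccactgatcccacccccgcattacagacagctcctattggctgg
Cox8a: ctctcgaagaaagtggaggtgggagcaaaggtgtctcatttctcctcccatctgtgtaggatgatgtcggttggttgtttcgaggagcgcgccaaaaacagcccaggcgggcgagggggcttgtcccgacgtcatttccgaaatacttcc
Cox8b: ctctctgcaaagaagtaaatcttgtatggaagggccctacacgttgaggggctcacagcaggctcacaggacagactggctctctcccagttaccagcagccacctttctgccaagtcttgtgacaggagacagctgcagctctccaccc
Ndufa4: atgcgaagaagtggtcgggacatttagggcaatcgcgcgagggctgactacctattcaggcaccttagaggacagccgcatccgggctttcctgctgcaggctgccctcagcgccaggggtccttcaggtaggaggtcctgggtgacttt

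The shown stretch held 12 CpG dinucleotides in Cox6b1 and 7 in Cox6b2, and 10 in Cox8a against 1 in Cox8b. In Cox8a, matches to CCGGAAG began at positions -5 and 33 from the start. They do not lie whole within the shown bases and are not in capitals. Over all members with a window, the 250 bases before the start held a median of 14 CpG, against 6 over the 27025 genes in the table. The motif CCGGAAG was in 14 of 63 members (22.2%) and 9.93% of all genes. The 10-base NRF1 motif, with 1 free position, was in 15 (23.8%) against 5.19%, and the YY1 motif AAGATGGC in 9 (14.3%) against 3.19%, each searched on both strands of the window. In 30 members no match to any of the 3 was found. These matches describe letters only.

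Under BPTES against DMSO, no member passed the test in any class. UMIs were summed by library and class, each gene was fitted by edgeR's quasi-likelihood method, and a gene was called at a Benjamini-Hochberg adjusted p below 0.05 over all genes of the class. Over the 20 classes, 1478 fits of nuclear members gave 0 calls, and 260 fits of mitochondrial members gave 0, against 0.151% of the 244238 fits of all genes. At an unadjusted p below 0.05 there were 155 and 31 fits, against 12% of the fits of all genes. DESeq2's Wald test gave 2 and 11 calls, against 1.32% of all its fits with an adjusted p. Of the 11 mitochondrial calls, 8 were in alveolar fibroblast-like cells, all higher under BPTES. The share of all genes called by that test in that class is not given here. By edgeR, 21 nuclear and 14 mitochondrial fits were called without BPTES replicate 1, against 2.12% of all fits. Of these, 20 and 12 were in general capillary endothelial-like cells, where 15.5% of all genes were called. Without DMSO replicate 2 there were 9 and 5, against 1.47% of all fits, in alveolar fibroblast-like cells, where 9.17% of all genes were called. Without BPTES replicate 2 there were 2 and 0, against 0.539%, and without DMSO replicate 1 there were 0 of either, against 0.593%. The smallest adjusted p by edgeR was 0.0972 for a nuclear gene, Cox6a1 in classical monocyte-like cells, and 0.0750 for a mitochondrial one, mt-Nd3 in alveolar fibroblast-like cells. Of all genes, 0% to 0.897% were called in a class. Of the 80 nuclear genes, 71 passed the filter on low counts in every class, and the other 9 in 0 to 15 classes: Cox4i2, Cox6a2, Cox6b2, Cox7a1, Cox7b2, Cox8b, Cox8c, Ndufa4l2 and a second feature named Atp5o (ENSMUSG00000116933), whose annotated span overlaps that of the main one.

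Summed nuclear levels were higher in both BPTES than in both DMSO libraries in 6 classes, lower in 4 and overlapping in 10. With 2 libraries against 2, a share of 0.333 of the possible arrangements has no overlap. Of the 6, 2 classes were barely apart: lymphatic endothelial-like cells, at 83.9 and 87.4 against 83.7 and 79.6, and pericyte-like cells, at 100.6 and 99.7 against 91.9 and 99.3. General capillary endothelial-like cells, the largest class with 16232 cells, had 71.3 and 70.1 UMIs per 10000 under BPTES and 67.3 and 66.7 under DMSO. The groups did not overlap, and the difference of the means was 5.44%. Of the 77 nuclear members tested there, 71 had a positive log2 fold change, with a median of 0.16, where all genes had a median of -0.01 and 48.8% were positive, and 65 had both BPTES libraries above both DMSO libraries, against 28.5% of all 16040 genes. In this class 0% of all genes were called. Cluster 6, led by Cxcl12, Efnb2 and Edn1 with no marker of the class among its top 10 genes, made up 15.8% and 21.5% of the class under BPTES and 12.3% and 13.9% under DMSO, and had a higher nuclear level (73.9 ± 2.61) than cluster 0 (66.9 ± 1.97). Within cluster 0 alone the levels were 69.4 and 67.7 against 65.6 and 65.1, and within cluster 6 they were 76.8 and 75.4 against 72.4 and 71.2. With total UMIs in place of TMM the median was 0.09 and 60 of 77 were positive.

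Among single genes of these capillary-like cells, Atp5k, the e subunit of the ATP synthase, had 53.7 and 54.0 CPM under BPTES and 40.8 and 45.4 under DMSO (log2 0.32 ± 0.074 SE; edgeR quasi-likelihood, adjusted p = 0.117). Atp5e, the epsilon subunit of its catalytic head, had 123 and 140.2 against 102 and 106 (log2 0.34, adjusted p = 0.119 by the same test). Both had BPTES above DMSO without overlap, and neither passed. Atp5s went the other way, with 7.20 and 5.86 against 9.24 and 8.41 CPM (log2 -0.43). Complex V genes were positive in 16 of 16, complex IV in 15 of 16, complex III in 8 of 8 and complex I in 31 of 35.

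Alveolar fibroblast-like cells showed a like picture, with 67.9 and 70.9 against 62.5 and 64.0 UMIs per 10000, 9.71% higher under BPTES. There 72 of 78 nuclear members were positive, with a median log2 fold change of 0.17 (all genes: 48.5% and -0.01), and 63 had both BPTES libraries above both DMSO libraries, against 26.1% of all genes; 0.204% of all genes were called. The shallow cluster 5, with its high nuclear level, made up 28.0% and 30.5% of the class under BPTES and 15.8% and 21.5% under DMSO. Without the shallow clusters the log2 ratio of the sums was 0.10 in place of 0.13, and cluster 1 alone had 62.7 and 64.2 against 59.3 and 59.3. Cluster 5 alone overlapped between the groups, at 143 and 148 against 148 and 150.3. Venous endothelial-like cells had 73.8 and 72.2 against 70.8 and 69.8, a smaller difference, again without overlap. Their dissociation genes had a median log2 fold change of -0.31 (2 of 10 positive) and their ribosomal protein genes one of 0.21 (80 of 81 positive). The part of either gene list was not tested.

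Cytosolic ribosomal protein genes moved with these classes. Their summed level in general capillary endothelial-like cells was 383 and 355 UMIs per 10000 under BPTES and 294 and 308 under DMSO, and 80 of 81 tested genes were positive with a median log2 fold change of 0.37. In alveolar fibroblast-like cells the median was 0.27. The sum of 10 genes induced by tissue dissociation was lower under BPTES in both classes, 79.4 and 65.1 against 91.4 and 83.2 in the capillary-like cells. These 10 genes did not all fall: 2 were positive in the capillary-like and 4 in the alveolar fibroblast-like cells. The part of the ribosomal protein or the dissociation genes in the subunit values was not tested.

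Classical monocyte-like cells had lower subunit levels under BPTES, 122 and 122 UMIs per 10000 against 140.3 and 136, a difference of -11.8% without overlap. Only 4 of 73 tested nuclear members were positive, the median log2 fold change was -0.18 (all genes: 50.0% positive, median 0.00), and 61 had both BPTES libraries below both DMSO libraries, against 23.6% of all genes, of which 0.157% were called. Complex I genes were negative in 35 of 35. Ndufv3, in the NADH-binding arm of complex I, had 69.2 and 74.8 CPM under BPTES and 97.0 and 91.1 under DMSO (log2 -0.38 ± 0.080 SE; edgeR quasi-likelihood, adjusted p = 0.113). Cox6b2 was the one nuclear member with both BPTES libraries above, at 14.3 and 11.6 against 9.76 and 9.86 CPM. Here ribosomal protein genes did not move with the subunits (median 0.04), while the dissociation genes were higher under BPTES, 61.8 and 51.6 against 36.0 and 43.6, and their part was not tested.

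The other 3 classes with lower sums under BPTES were non-classical monocyte-like, dendritic-like and B-like cells. In non-classical monocyte-like cells, the levels were 78.7 and 81.0 under BPTES and 89.0 and 86.6 under DMSO, and 53 of 73 tested nuclear members had both BPTES libraries below both DMSO libraries, against 20.4% of all genes. Dissociation genes had a median log2 fold change of 0.31 there, with 9 of 10 positive, and their part was not tested. In dendritic-like cells they were 108 and 106 against 115 and 114, with 38 of 73 members below, against 18.3%. Of their clusters, 30 had 107 and 107 against 120 and 118 and 34 had 109 and 105 against 109 and 110.2. B-like cells, which are lymphoid, had 72.5 and 71.2 against 74.2 and 78.0. Not all myeloid classes were lower: interstitial macrophage-like cells had 100.4 and 103 against 99.1 and 97.0, and alveolar macrophage-like cells, too few to be tested, had 138 and 134 against 114 and 124. The dissociation genes of interstitial macrophage-like cells had a median of -0.23, with 3 of 10 positive, and their part was not tested. Hspa1a and Hspa1b, heat shock genes of that list, were not called there in the reported fits. At resolution 0.5 both were called higher under BPTES, where 0.186% of the fits of all genes were called.

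In neutrophil-like and AT2-like cells the result depended on the scaling. The neutrophil-like sums over total UMIs were 66.0 and 68.7 against 67.5 and 67.3, a log2 ratio of -0.0023, and the same sum scaled by TMM gave -0.08. On the TMM scale 44 of 73 tested nuclear members had both BPTES libraries below both DMSO libraries, against 22.1% of all genes, with a median log2 fold change of -0.11. Its clusters differed in opposite directions: cluster 9 had 47.2 and 48.8 against 42.3 and 40.4, and cluster 26 had 85.3 and 86.9 against 102 and 93.7. In AT2-like cells the sums over total UMIs were 96.3 and 99.2 against 99.8 and 94.8, a log2 ratio of 0.01 that was 0.06 with TMM. On the TMM scale 40 of 76 nuclear members had both BPTES libraries above, against 23.7% of all genes, with a median of 0.07.

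**Figure D4:**
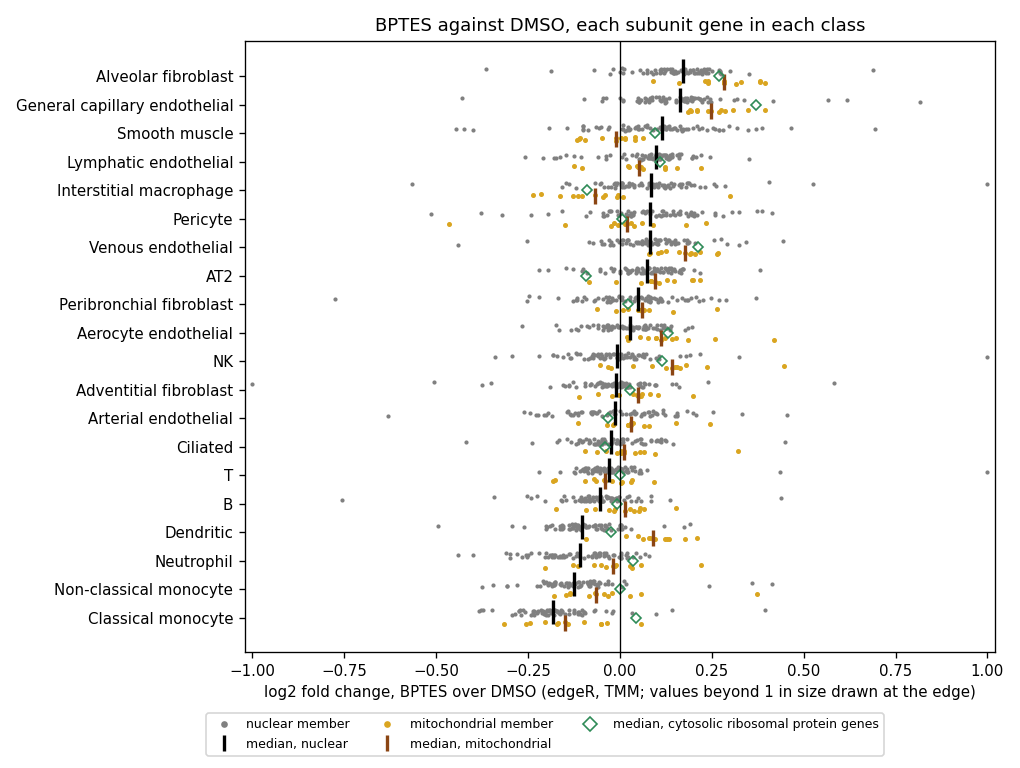
Log2 fold change of BPTES over DMSO (edgeR, TMM) for every tested member in each class, with medians for nuclear members, mitochondrial members and cytosolic ribosomal protein genes. Nuclear medians run from -0.18 in classical monocyte-like to 0.17 in alveolar fibroblast-like cells, and ribosomal medians stand to the right of them in general capillary endothelial-like cells (0.37 against 0.16).

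Mitochondrial genes were compared apart, since the limit of 10% mitochondrial UMIs on each cell acts on them. Before that limit, 1.68% and 1.49% of cells under BPTES and 1.10% and 1.03% under DMSO lay above it. Summed mitochondrial levels were higher in both BPTES than in both DMSO libraries in 5 classes, lower in 5 and overlapping in 10. The share of 0.333 of arrangements without overlap applies here too. Interstitial macrophage-like cells, higher for nuclear genes, were lower here, at 157.8 and 147.2 UMIs per 10000 against 168.0 and 158.5. In alveolar fibroblast-like cells the summed level was 146 and 153 UMIs per 10000 under BPTES and 128 and 126 under DMSO. The BPTES mean was 17.9% higher. Cluster 1 alone had 139 and 144 against 124 and 120. The shallow cluster 5, a larger part of the class under BPTES, had 243 and 262 against 237 and 238. Over the whole class, 13 of 13 genes were positive with a median log2 fold change of 0.28. With no limit the median was 0.29. mt-Nd3, a core subunit of complex I, had 101 and 107 CPM against 76.6 and 81.2 (log2 0.40 ± 0.075 SE; edgeR quasi-likelihood, adjusted p = 0.075).

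General capillary endothelial-like cells had 137 and 150.4 UMIs per 10000 under BPTES and 127 and 129 under DMSO, and all 13 genes had both BPTES libraries above both DMSO libraries (median log2 0.25), against 28.5% of all genes. Without BPTES replicate 2, the log2 ratio of the sums there was 0.10 in place of 0.17. mt-Atp8, a subunit of complex V, had 109.5 and 114 CPM against 75.5 and 94.2, and mt-Co1 had 2482 and 2743 against 2054 and 2167. Over the 20 classes, mt-Atp8 and mt-Co1 were each positive in 18, with medians of 0.20 and 0.05, and mt-Nd1 in 5, with a median of -0.09. Venous endothelial-like cells had 160.5 and 157 against 144 and 144.

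In classical monocyte-like cells the sum was 139.7 and 138 under BPTES and 152 and 148 under DMSO, and 12 of 13 genes were negative. mt-Cytb, the one mitochondrial gene of complex III, had 748 and 757 CPM against 942 and 929.7 (log2 -0.32 ± 0.063 SE; edgeR quasi-likelihood, adjusted p = 0.098). mt-Co1 overlapped between the groups, at 3839 and 3707 against 3764 and 3493. Set against nuclear subunit UMIs rather than all UMIs, the mitochondrial sum was higher under BPTES, with a log2 ratio of 0.07 in place of -0.11.

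Cox6a1 (chr5:115345642-115348981, - strand), the broadly used Cox6a subunit of complex IV, differed from the rest. Its log2 fold change was negative in 20 of 20 classes, with a median of -0.23, and in 18 classes both BPTES libraries lay below both DMSO libraries. In classical monocyte-like cells it had 182 and 179 CPM under BPTES and 225 and 244 under DMSO (log2 -0.38 ± 0.075 SE; edgeR quasi-likelihood, adjusted p = 0.097). In ciliated-like cells it had 185 and 176 against 230.1 and 251.

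The difference in Cox6a1 ran against the other subunits in the classes where those were higher. In general capillary endothelial-like cells it had 149 and 159 CPM against 166 and 164 (log2 -0.10). The groups overlapped in alveolar fibroblast-like cells, at 125 and 134 against 131 and 141, and in smooth muscle-like cells. Of the 7554 genes tested in every class, 5 (0.0662%) had BPTES below DMSO without overlap in 18 or more classes, Cox6a1 among them. The classes share the same 4 libraries, so 20 classes are not 20 replicates, and Cox6a1 passed the adjusted test in none. No other member was so one-sided: Atp5k was above without overlap in 11 classes and below in 0, and 6.42% of the 7554 genes were above in 11 or more.

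**Figure D5:**
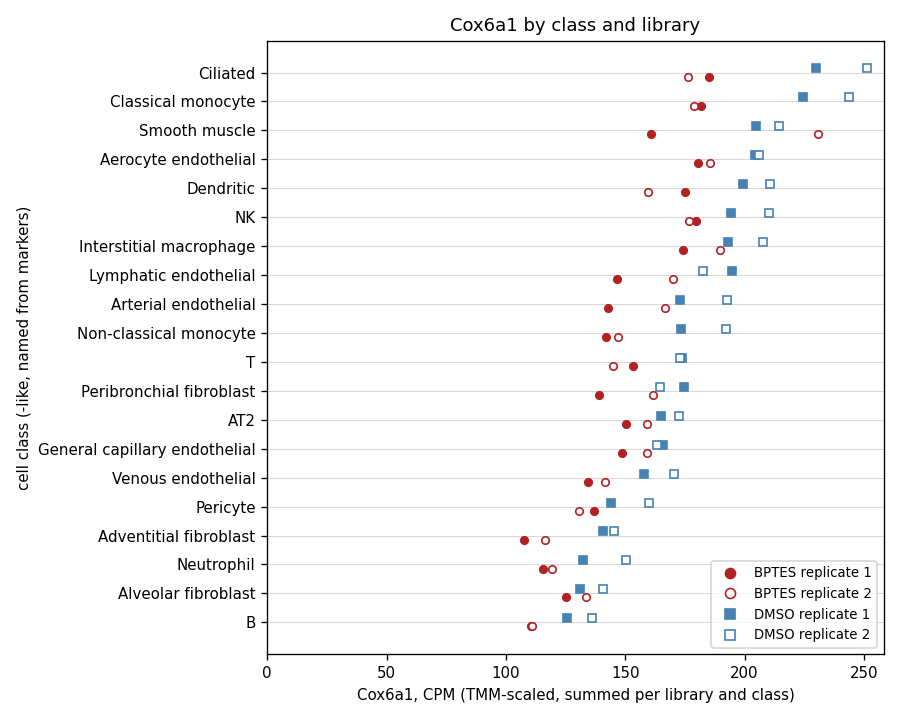
Cox6a1 level in CPM (TMM-scaled) in each class, each point 1 library, BPTES and DMSO marked apart, classes ordered by the DMSO mean. The BPTES points lie below the DMSO points in 18 of 20 classes and overlap with them in alveolar fibroblast-like and smooth muscle-like cells.

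The 150 bases before the RefSeq start of Cox6a1 (chr5:115348959-115349108, GRCm38.p6, - strand) are shown because this gene carried the most one-sided difference among the members. Capitals mark a match to the NRF1 motif, then one to the ETS motif CCGGAAG, both on the opposite strand, and the stretch held 18 CpG.
Cox6a1: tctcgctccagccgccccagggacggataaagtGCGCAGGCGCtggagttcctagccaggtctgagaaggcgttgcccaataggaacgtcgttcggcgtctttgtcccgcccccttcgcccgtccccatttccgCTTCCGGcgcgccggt

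The members with the lowest and the highest median log2 fold change over the classes were taken for each complex. In complex I these were the mitochondrial genes mt-Nd1 at -0.09 and mt-Nd4l at 0.09, with Ndufa8 at -0.08 and Ndufs6 at 0.08 at the ends of the nuclear ones. In complex III they were Uqcrfs1, the Rieske iron-sulfur protein, at -0.03 and Uqcrq at 0.08. In complex IV, Cox6a1 at -0.23 was the lowest, with Cox5a at 0.14 and Cox6a2 at 0.70 at the other end. Cox6a2 was tested in 4 classes only. Among them were NK-like cells, with 40 and 13 Cox6a2 UMIs under BPTES and 7 and 6 under DMSO. Its median thus rests in part on few UMIs. In complex V they were Atp5g2 at -0.02 and mt-Atp8 at 0.20, with Atp5e at 0.12 the highest nuclear one. In the sum of all cells, Cox6a2 had 11.1 and 11.8 CPM under BPTES and 5.17 and 5.63 under DMSO, while AT2-like cells, its main source, numbered 389 and 401 against 118 and 237. Within AT2-like cells it overlapped between the groups, at 131 and 138 against 167 and 116. The isoform shares of pericyte-like, AT2-like and alveolar fibroblast-like cells given above also overlapped between BPTES and DMSO.

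Other genes of the pathway were read from 5 lists with 77 genes: complex II and electron carriers, assembly factors of complex I and of complexes III to V, regulators of mitochondrial transcription and biogenesis, and membrane carriers. None was called up or down in any of the 20 classes, where 0.151% of the fits of all genes were called. In general capillary endothelial-like cells, Slc25a5, an ADP/ATP carrier, had 113 and 124 CPM against 98.0 and 97.5, and Cycs, cytochrome c, 57.5 and 68.8 against 48.1 and 51.0, both without overlap. Across classes, Ppargc1a, a coactivator of mitochondrial biogenesis, was at 400.2 CPM in ciliated-like cells and 25.6 in AT2-like cells. Tfam, which packages mitochondrial DNA, was highest in B-like cells at 107. In the lists for dissociation and RNA quality, 1 gene was called: the stress gene Junb was lower in AT2-like cells, at 454 and 413 CPM under BPTES and 578 and 593 under DMSO (log2 -0.44, edgeR adjusted p = 0.050), a class in which 0.561% of all genes were called. The Junb call was lost with doublets kept and when scaling left out mitochondrial genes. It was also lost on leaving out BPTES replicate 2, DMSO replicate 1 or DMSO replicate 2.

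Whether the treatment difference itself varied with the cell class was tested in 1 edgeR fit over the largest class of each compartment: general capillary endothelial-like, alveolar fibroblast-like, AT2-like and B-like cells. Of 79 nuclear and 13 mitochondrial members, 0 passed, against 1.4% of all 18086 genes. The smallest adjusted p of a member by edgeR's quasi-likelihood F test was 0.0851, for Uqcrq, a subunit of complex III. DESeq2's likelihood ratio test called 6, against 6.15% of the genes it gave an adjusted p. The median log2 difference of B-like minus capillary-like cells was -0.21 for nuclear members. With classical monocyte-like cells in place of B-like cells, a choice made after their values were seen, 20 nuclear and 4 mitochondrial members passed, against 3.45% of all genes.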

How the data were processed

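Single cells were profiled with GEM-X Single Cell 3' v4 chemistry, and the deposited values are raw UMI counts per gene and cell, made by the authors with Cell Ranger 8.0.1 on mm10 per the submitters' processing notes. The annotation release, use of intronic reads and cell calling are not given in the sources used here. Cells with at least 500 genes, 1000 UMIs and at most 10% mitochondrial UMIs were kept. The cells that scored as most like simulated doublets were then removed, at 0.4% for each 1000 cells kept until then. This left a median of 13994 to 15805 UMIs per cell by library. Cells were clustered (2000 variable genes, 40 principal components, 15 neighbours, Leiden resolution 1, igraph 0.11.9) and clusters named from markers of 28 classes, with at least 3 markers seen in 10% of cells. The rules that left 13 clusters unnamed were in part set after seeing the data.

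Sums of counts by library and class were fitted in R 4.3.3 by edgeR 4.0.16's quasi-likelihood method after filterByExpr and TMM scaling, with standard errors derived from the fold change and F and therefore approximate. Alternatives were DESeq2 1.42.0, other scalings, no filter, other cell filters and resolutions, doublets kept, and leaving out each library. Summed levels are subunit UMIs over all UMIs of a class, and isoform shares are UMIs of 1 isoform over those of its set. The tests were tried on simulated counts. The members, gene lists and comparisons were chosen with earlier results of these data known. Genes were named by rule: called members, the 13 mitochondrial genes, the isoform sets, the 10 members with the largest ratio between classes (at least 10 CPM in the highest), and the extremes of each complex; genes named besides these were chosen after their values were seen. Replicate numbers were not taken as pairs: the labels give no shared source and there are only 2 of them. Gene coordinates are from GENCODE's mm10 annotation and promoter sequences from RefSeq (GRCm38.p6). Unnamed cells entered only the fit on all cells. The other genes with a pattern like that of Cox6a1 are not reported here.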

Additional observations from a re-analysis of the deposited data

Results flagged for a closer look

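In a fit with classical monocyte-like cells in place of B-like cells, chosen after the values were seen, the BPTES difference varied between general capillary endothelial-like, alveolar fibroblast-like, AT2-like and classical monocyte-like cells for 20 of 79 nuclear and 4 of 13 mitochondrial members (edgeR quasi-likelihood F test, adjusted p below 0.05), against 3.45% of all 17744 genes. All 24 had a lower difference in classical monocyte-like than in capillary-like cells. They included Atp5g1, a ring subunit of complex V (log2 difference -0.50, adjusted p = 0.013), Cox7b and Cox5a of complex IV (-0.42 each), Ndufa5 of complex I (-0.53) and mt-Cytb of complex III (-0.50). The medians over all tested members were -0.31 for nuclear and -0.42 for mitochondrial genes. Because these monocyte-like cells were picked for their difference, the counts describe it and do not add support, and the fit over the largest class of each compartment called 0.

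A cluster of 13 cells outside the compared classes, unnamed and led by Myl7, Actc1, Myl4, Sln and Mb, genes known from heart muscle, held the muscle isoforms of complex IV at levels above those of every compared class. Cox6a2 stood at 3180 CPM (here UMIs per 1000000 of the cluster's UMIs), Cox8b at 1130.3 and Cox7a1 at 1083, from 2 to 4 cells in each library. Among the compared classes the highest levels were 138 CPM for Cox6a2, in AT2-like cells, 13.4 CPM for Cox8b, in lymphatic endothelial-like cells, and 3.39 CPM for Cox7a1, in ciliated-like cells.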

How the results depend on the processing

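Members called over the 20 classes were 0 nuclear and 0 mitochondrial in the reported fits. Nuclear calls were 14 with no filter on low counts, 2 with DESeq2's Wald test and 0 to 21 on leaving out 1 library, with 21 without BPTES replicate 1, 9 without DMSO replicate 2 and 2 without BPTES replicate 2. Mitochondrial calls were 11 with no filter, 11 with DESeq2 and 0 to 14 on leaving out 1 library, with 14 without BPTES replicate 1 and 5 without DMSO replicate 2. All genes were called in 0.151% of the reported fits, 2.63% with no filter, 1.32% with DESeq2, 2.12% without BPTES replicate 1, 1.47% without DMSO replicate 2 and 0.539% without BPTES replicate 2. Most were higher in general capillary endothelial-like and alveolar fibroblast-like cells or lower in classical monocyte-like cells. With the replicate number as a block there were 6 nuclear, 7 mitochondrial and 25 context calls (correlation of same-numbered libraries -0.31 to 0.31 over classes), and with the pairing crossed, chosen after seeing the data, 1, 3 and 33, against 1.21% and 1.13% of all fits. The block could not be added to the treatment by class fit, where the library is already a term.

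Context genes called numbered 1 in the reported fits, 3 at resolution 0.5, 2 at resolution 2, 3 with subunit genes kept out of clustering, 2 with total UMIs as library size, 0 when scaled without mitochondrial genes, 88 with no filter, 26 with DESeq2 and 5 to 64 on leaving out 1 library. Of the fits of all genes, 0.186% were called at resolution 0.5, 0.3% at resolution 2 and 0.184% with subunit genes kept out of clustering. The share was 0.18% with total UMIs as library size and 0.147% when scaled without mitochondrial genes, against 0.151% in the reported fits. Treatment by class calls were 0, then 6 with DESeq2's likelihood ratio test and 24 with classical monocyte-like cells. The shares of all genes called were 1.4%, 6.15% and 3.45%. With no filter there were 6 calls, and the share of all genes for that fit is not given here, so the count stands without a comparison. The cause was not tested. With nuclear subunit UMIs as denominator, the mitochondrial log2 ratio was 0.072 in classical and 0.065 in non-classical monocyte-like cells, in place of -0.11 and -0.07. The median of the summed level over classes, near 0 as reported (log2 ratio 0.0022 nuclear, 0.012 mitochondrial), was -0.0096 nuclear without BPTES replicate 2, -0.0039 nuclear without DMSO replicate 2 and -0.00018 mitochondrial without BPTES replicate 1. The summed levels and medians of the 5 classes compared across settings (general capillary, venous, alveolar fibroblast and both monocyte-like classes) otherwise kept their direction under the alternatives run. With doublets kept, the Cox4i2 share of smooth muscle-like cells was 25.9% in place of 47.6%. Cox6a1 stayed negative in at least 19 of 20 classes under each alternative and was called in 3 with no filter, 1 with DESeq2 and 1 without BPTES replicate 1, in ciliated-like cells. Having 2 libraries a group, and few UMIs in small classes, limits the precision of these values.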
